A study of Mus musculus with 2 samples.

Results

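The transcripts of 36 genes that copy DNA in S phase were followed in tumor BECs, the blood endothelial cells of mouse tumors, by scRNAseq. The genes were selected by symbol from a list of DNA replication and S phase genes, a rule that uses no measured value, although the list was drawn up with earlier results of these data known. All 36 were among the 31055 features counted, and each was detected in the BECs of both libraries. They comprised 11 genes of origin licensing and the helicase, 6 of primase, polymerase, clamp and fork, 3 of deoxynucleotide synthesis, 6 of chromatin assembly, histone supply and methylation maintenance, 7 of checkpoint, repair and clamp partners, and 3 cyclin and E2F genes.

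Endothelial cells were sorted from orthotopic tumors of WT C57BL6 mice, which were female and 6 weeks old when 100000 PyMT or KPC cells were implanted, 10 days before the digestion. PyMT cells come from mammary tumors that express the polyoma middle T antigen, and KPC cells from a pancreatic cancer model. Tumors were digested in collagenase at 400 U/mL for PyMT and 500 U/mL for KPC, and cells bearing CD45, EpCAM, Ter119, podoplanin or Annexin V were depleted before the sort. Each tumor model gave 1 library, and the number of mice in it is not stated in the sources used here, so tumor model, digestion and library cannot be told apart and no test between them was possible.

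The PyMT library held 12464 barcodes and 55547926 UMIs (unique molecular identifiers, each counting 1 captured transcript), and the KPC library 10236 barcodes and 44441942 UMIs. After cells with under 500 genes or with 10% or more mitochondrial UMIs were left out, 11744 and 9591 cells remained. The libraries shared 170 barcode sequences, of which 151 were kept in both. Cells were placed in classes by UMI sums of a pair of marker genes each, and the BECs were the tip class (Apln and Angpt2), the capillary class (Car4 and Cd300lg), the venule class (Ackr1 and Selp), the artery class (Gja5 and Sema3g) and the remaining cells, called the other class. The tip, capillary, venule and artery classes each had a higher summed level of their own marker list than any other BEC class in both libraries. The other class had no list of its own. Cells were placed by the UMIs of marker genes, so where a list holds its class's pair, the higher level was largely built in. It is therefore no independent test of the class labels. Every cell was then thinned at random to 2000 UMIs, which left 9355 of 10677 BECs in PyMT and 4531 of 7433 in KPC. Of the 2902 KPC BECs that were too shallow, 700 were of the capillary class, leaving 597, and 1992 of the other class, leaving 2097.

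Before S phase, the helicase subunits Mcm2 to Mcm7 are loaded onto replication origins with the help of Cdc6, and geminin (Gmnn) blocks renewed loading once replication has begun. Primase and polymerase alpha then start new strands, the clamp Pcna, loaded by the Rfc complex, holds polymerases on the template, and thymidylate synthase (Tyms) and ribonucleotide reductase (Rrm1 and Rrm2) supply the nucleotides. Many of these genes are transcribed at the transition from G1 to S under E2F factors, which are held back by the retinoblastoma family in resting cells, and most endothelial cells of healthy adult vessels are resting.

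The sequence around the genes' starts was searched for the motif of these factors. RefSeq promoter windows (GRCm38.p6, from 250 bases before to 50 bases after a gene's start) were matched by symbol for 29 of the 36 genes. A core E2F motif, written TTTCCCGC, TTTCGCGC, TTTGCCGC or TTTGGCGC and searched on either strand, lay in the windows of 12 of these 29 genes (41.4%), against 2.6% of the 27025 genes with a window. Counted by window, it lay in 12 of 32 (37.5%) against 2.26% of all 32851. The 12 were Cdc6, Cdca7, Clspn, Dtl, Hells, Mcm3, Mcm5, Mcm6, Mcm7, Pclaf, Pola1 and Uhrf1. By gene, the motif lay in 34.4% of the matched genes of a list of other replication genes and in 46.2% of G1/S regulators, but in 5.71% of G2 and M phase genes and in none of 9 matched angiogenic capillary genes. The 60-base stretches below are those that held a motif and lay, over their whole length, upstream of the gene in both the RefSeq and the GENCODE annotation, each read 5′ to 3′ on the strand of its gene with the motif in capitals. They lie upstream of Mcm5 and Mcm6, of the helicase (chr8:75109334-75109393, plus strand, and chr1:128359719-128359778, minus strand), of Pola1, the catalytic subunit of polymerase alpha (chrX:93632260-93632319, minus strand), and of Dtl, a clamp-dependent ubiquitin ligase adaptor (chr1:191575545-191575604, minus strand).
Mcm5: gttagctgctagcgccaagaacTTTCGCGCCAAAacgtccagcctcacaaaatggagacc
Mcm6: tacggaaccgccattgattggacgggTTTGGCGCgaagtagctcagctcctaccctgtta
Pola1: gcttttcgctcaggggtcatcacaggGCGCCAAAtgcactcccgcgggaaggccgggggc
Dtl: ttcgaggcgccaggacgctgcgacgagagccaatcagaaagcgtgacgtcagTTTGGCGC
The stretch of Mcm5 holds 2 overlapping motifs, 1 on each strand. A match is a description of these letters and not evidence that a factor binds.

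At the settings used, the 36 genes were most abundant in tip BECs and least abundant in artery BECs in both libraries. Their summed level was 2050 CPM (counts per 1000000 UMIs, 95% exact Poisson interval 2005 to 2096) in tip cells of PyMT, 1671 (1634 to 1708) in capillary, 1495 (1396 to 1599) in venule, 1117 (1096 to 1139) in the other class and 523 (431 to 630) in artery cells. In KPC it was 1749 (1697 to 1801) in tip cells, 1507 (1470 to 1545) in the other class, 1410 (1340 to 1483) in venule, 1361 (1296 to 1429) in capillary and 903 (749 to 1079) in artery cells. The ends of the order were shared by the libraries, while the other class stood next to last in PyMT and second in KPC. The top of the KPC order turned under 2 alternatives, since the log2 ratio over capillary was 0.46 for the other class and 0.21 for tip cells with class rules read on thinned counts, and 0.22 and 0.16 among cells of 3000 to 6000 UMIs. Venule and capillary BECs were neighbors in that order in both libraries, and in KPC their intervals overlapped. Over all BECs the sum was 1455 CPM (1438 to 1473) in PyMT and 1533 (1508 to 1559) in KPC. These intervals cover counting error only, and they are narrower than the spread between cells, because the variance of the sum over BECs was 4.54 times its mean in PyMT and 5.76 times in KPC.

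**Figure D1:**
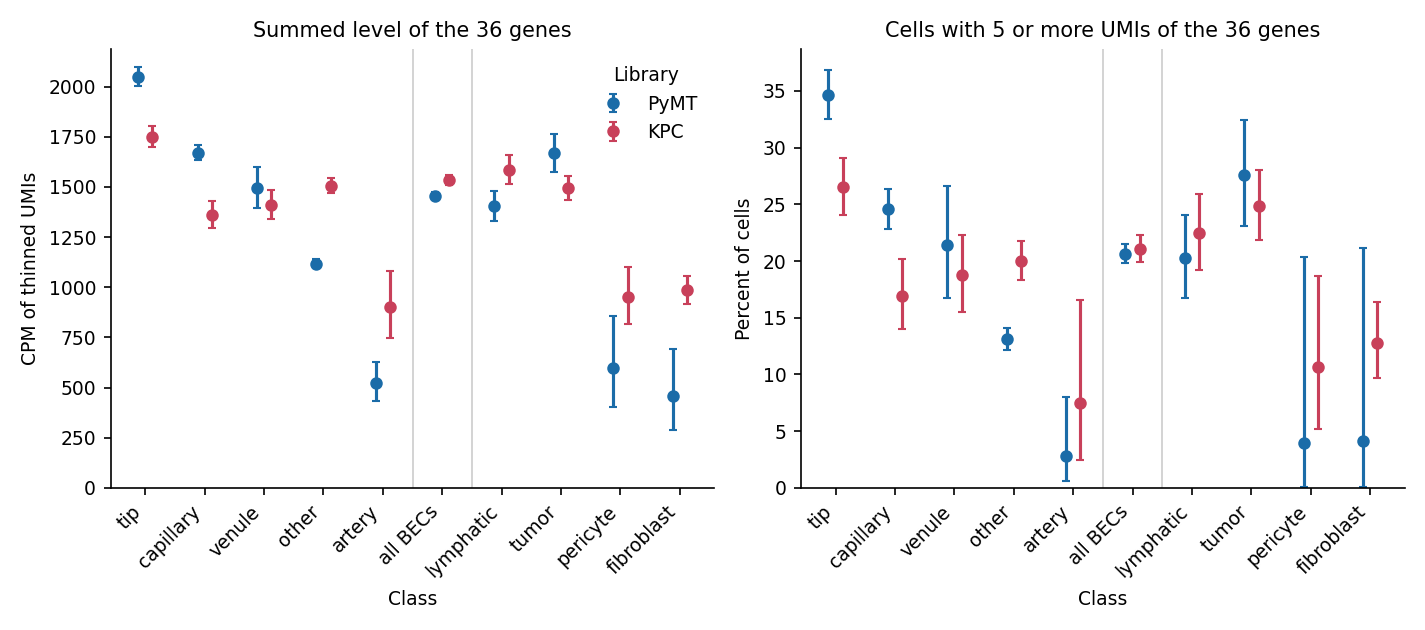
Summed level of the 36 genes (left, CPM of UMIs thinned to 2000 per cell) and percent of cells with 5 or more of their UMIs (right) in each class of the PyMT and KPC libraries; points are 1 library each and bars are exact 95% intervals for counting error. Tip cells stand highest and artery cells lowest among BECs in both libraries, at 2050 and 523 CPM in PyMT and at 1749 and 903 CPM in KPC.

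Other cells of the same libraries gave a scale for these levels. Cells of the tumor class, set by Krt8 and Krt18 alone, had 1667 CPM (1576 to 1762) in PyMT and 1493 (1433 to 1555) in KPC. The summed tumor marker list of this class was 2247 CPM in PyMT and 11140 in KPC, and whether its cells were implanted tumor cells was not tested. Lymphatic endothelial cells had 1404 (1331 to 1480) and 1586 (1517 to 1658). Fibroblasts had 985 (918 to 1056) and the pericyte class 952 (818 to 1102) in KPC. The 24 fibroblasts and the 25 cells of the pericyte class in PyMT had 458 (287 to 694) and 600 (405 to 857). The pericyte class also had 3500 CPM of the pan-endothelial list in PyMT and 3000 in KPC, beside 4100 and 6910 of its own list. Of its cells, 16 of 25 in PyMT and 27 of 94 in KPC met more than 1 rule. Its level is therefore not that of pericytes alone. No class was known to lack these transcripts, so the level that free RNA alone would give was not measured.

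The 36 genes were spread unevenly over BECs. With 5 or more UMIs among 2000 taken as high, 1930 PyMT BECs (20.6%, 95% exact binomial interval 19.8 to 21.5%) and 954 KPC BECs (21.1%, 19.9 to 22.3%) were high, and they held 62.8% and 66.9% of the 36 genes' UMIs. At the other end, 23.5% of PyMT and 23.7% of KPC BECs had no UMI of any of them. A Poisson distribution of the same mean would place 17.0% and 19.6% of cells at 5 or more UMIs and 5.44% and 4.66% at 0, so the shares stood further from it at 0 than at 5 or more. The value of 5 divides a continuous range, with 542 PyMT and 212 KPC BECs at 4 UMIs and 373 and 168 at 5, so high cells are a range and not a cell type. The most UMIs in 1 cell were 25 in PyMT and 31 in KPC.

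**Figure D2:**
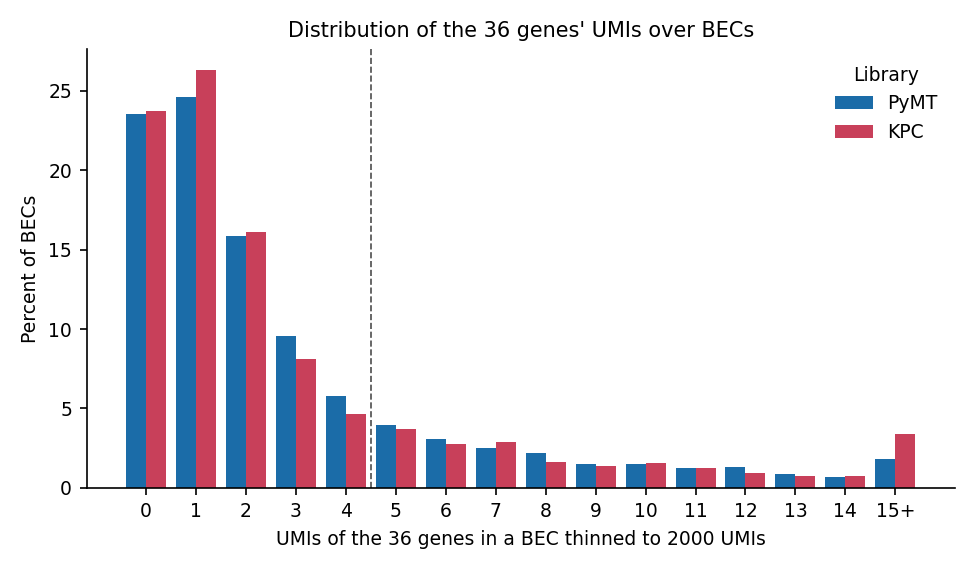
Percent of BECs (vertical axis) with each number of UMIs of the 36 genes among 2000 UMIs (horizontal axis) in the PyMT and KPC libraries; the dashed line divides high cells, with 5 or more, from the rest. Cells at 0 make up 23.5% and 23.7%, and the high cells 20.6% and 21.1%.

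The shares of high cells followed the order of the summed levels in both libraries. This is partly built in, because the cut was set on the same sum. In PyMT 34.7% of tip cells (32.6 to 36.8%), 24.6% of capillary (22.9 to 26.4%), 21.4% of venule (16.8 to 26.6%), 13.1% of the other class (12.2 to 14.1%) and 2.80% of artery cells (0.582 to 7.98%, 3 of 107 cells) were high. In KPC these shares were 26.5% (24.1 to 29.1%), 16.9% (14.0 to 20.2%), 18.8% (15.5 to 22.3%), 20.0% (18.3 to 21.8%) and 7.46% (2.47 to 16.6%, 5 of 67 cells). Within high cells the mean number of UMIs differed less, at 8.75 in tip, 8.96 in capillary, 8.85 in venule and 8.91 in the other class of PyMT, and at 9.21, 10.1, 9.30 and 10.2 in KPC, while the 3 and 5 high artery cells had means of 6.33 and 11.6. The cut bounds these means from below, so the smaller difference is partly built in too. Cells below the cut differed by class too. In PyMT their mean was 1.63 in tip, 1.51 in capillary, 1.39 in venule, 1.22 in other and 0.894 in artery cells. In KPC these means were 1.43, 1.23, 1.32, 1.22 and 1.02. Tip cells made up 20.7% of the thinned PyMT BECs and 34.9% of the high ones, and 27.3% and 34.4% in KPC.

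Pclaf, a small protein that binds the clamp Pcna, gave the most UMIs, 11.2% of those of the 36 genes over both libraries. In PyMT it had 267 CPM in tip, 209 in capillary, 179 in venule, 128 in the other class and 56.1 in artery cells, and in KPC 169, 93.8, 126, 144 and 59.7. Tyms, which makes thymidylate, had 162, 157, 130, 107 and 56.1 CPM in the same order of classes in PyMT and 151, 133, 130, 149 and 52.2 in KPC. For both genes tip cells were highest and artery cells lowest in each library. Slbp, which binds histone mRNAs, had 143, 115, 105, 99.9 and 42.1 CPM in PyMT and 146, 164, 124, 132 and 89.6 in KPC, where capillary cells were highest. Tipin, of the fork protection complex, had 129, 106, 137, 69.8 and 42.1 CPM in PyMT and 106, 83.8, 97.6, 91.6 and 37.3 in KPC. Nasp, a histone chaperone, had 103, 87.2, 73.7, 57.7 and 18.7 CPM in PyMT and 88.5, 63.7, 65.7, 74.4 and 37.3 in KPC. Artery cells were again lowest for these 3 genes in both libraries, and venule cells of PyMT were highest for Tipin.

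Among the helicase subunits, Mcm6 had 87.1 CPM in tip, 64.2 in capillary, 47.4 in venule, 55.5 in the other class and 46.7 in artery cells of PyMT, and 80.0, 49.4, 61.9, 61.5 and 74.6 in KPC. Mcm3 had 67.2, 67.8, 42.1, 42.7 and 23.4 CPM in PyMT and 75.6, 64.5, 58.2, 71.1 and 22.4 in KPC. Artery cells were lowest for Mcm3 in both libraries and for Mcm6 in PyMT. The artery values of Mcm6 rest on 10 UMIs in each library, and lower artery values of other genes in the same library rest on fewer. Rfc2, a subunit of the clamp loader, had 74.4, 63.4, 59.6, 45.6 and 23.4 CPM in PyMT and 68.3, 52.8, 49.7, 53.6 and 44.8 in KPC. The other 28 genes had 4.44 CPM (Mcm10, which helps to activate the helicase) to 55.4 (Rrm2) over PyMT BECs and 4.86 (Mcm10) to 67.0 (Pcna) over KPC BECs. These levels are given to compare classes and not genes. Mcm7, Cdc45, Gins2, Rfc2, Fen1, Pclaf and Ccne2 each lie across another counted gene of the other strand, and their counts are uncertain where counting did not use strand, which is not stated in the sources used here.

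**Figure D3:**
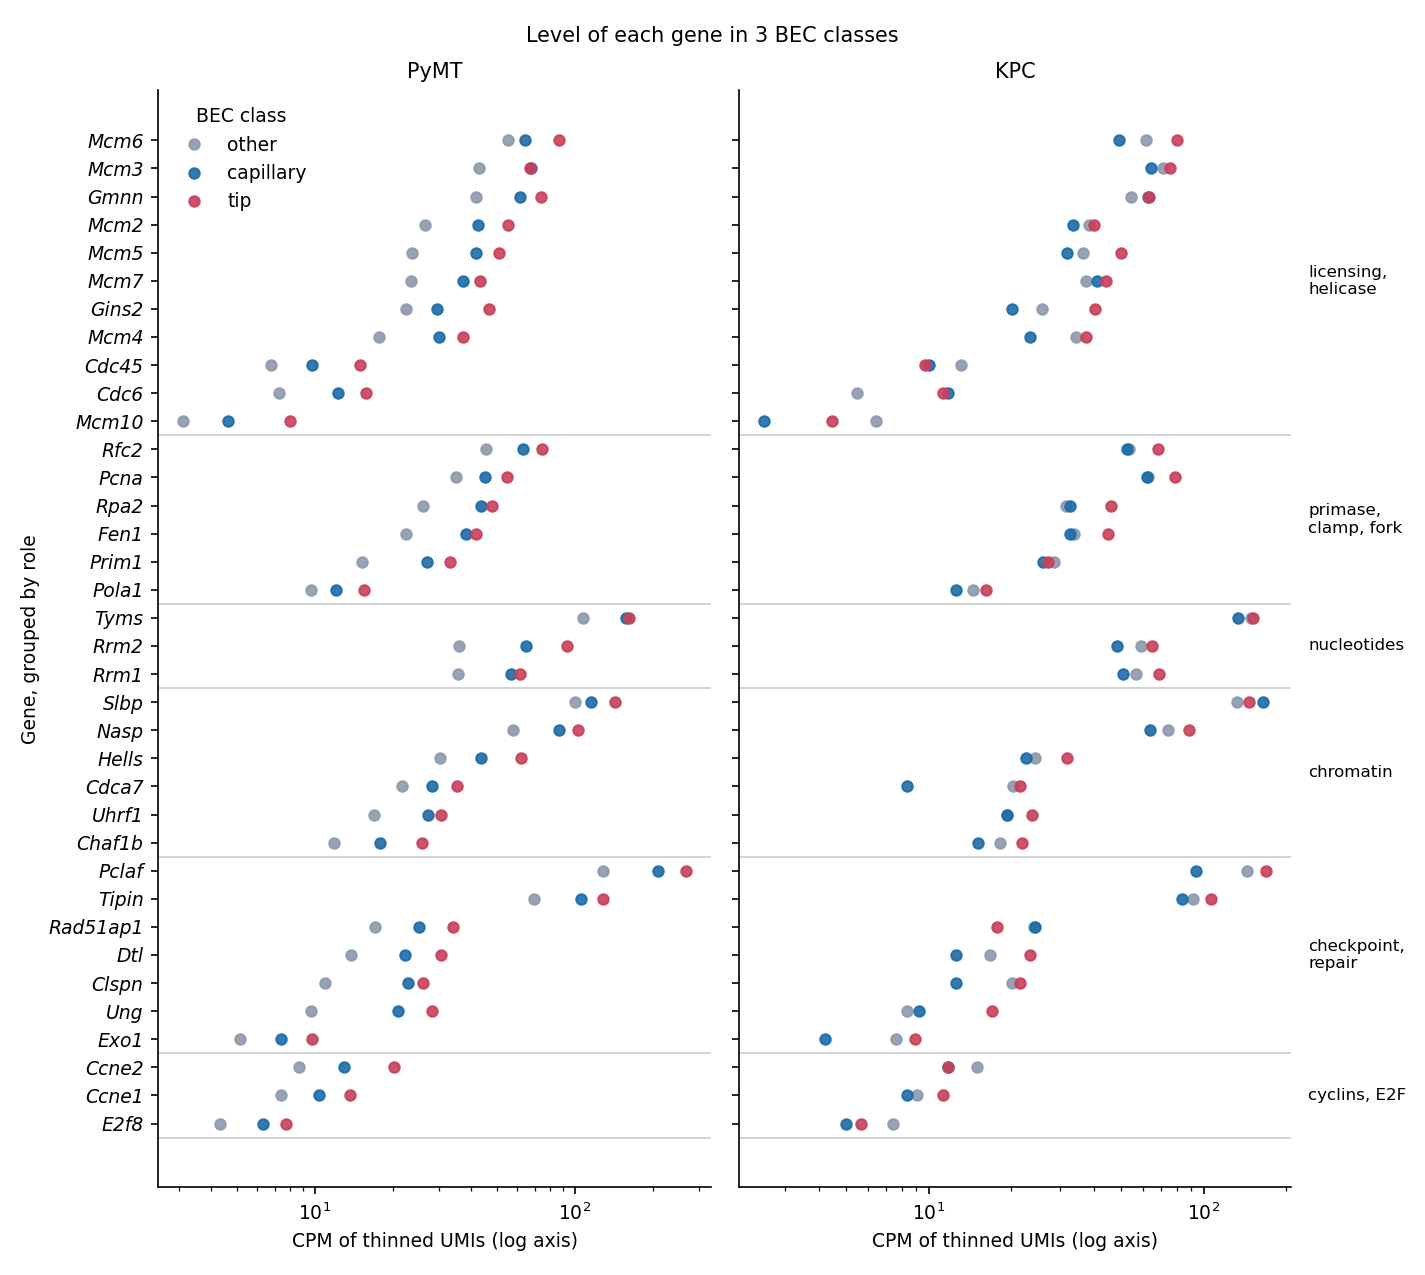
Level of each of the 36 genes (CPM of thinned UMIs, log axis) in tip, capillary and other BECs of the PyMT library (left) and the KPC library (right), with genes grouped by role. In PyMT the tip class lies to the right of the other class for each of the 36 genes, and in KPC for 30 of them.

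Tip BECs were above capillary BECs across roles. The summed log2 ratio of tip over capillary was 0.29 (95% exact interval for counting error 0.25 to 0.34) in PyMT and 0.36 (0.28 to 0.44) in KPC. In PyMT 35 of the 36 genes had a ratio above 0, where 50% of all 10236 features with 20 or more UMIs did, and for 17 the interval lay above 0, against 8.86% of all features. In KPC 30 of the 35 genes that passed that minimum were above 0, against 45.9% of 9145 features, and 9 had an interval above 0, against 12.5%. The median ratio of the genes was 0.32 in PyMT and 0.42 in KPC, while that of all features was -7.9e-05 and -0.05. Highest in PyMT were Mcm10 (0.78, interval -0.05 to 1.64) and Gins2, a subunit of the active helicase (0.66, 0.33 to 0.99), and lowest was Mcm3 (-0.01, -0.25 to 0.23). Highest in KPC was Cdca7, a partner of the remodeler Hells (1.35, 0.36 to 2.50, from 53 and 10 UMIs), and lowest was Rad51ap1, a DNA repair factor (-0.45, -1.16 to 0.28).

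The size of this difference depended on how tip cells were defined. The class rules were read before thinning, and tip cells had a median of 5845 UMIs and capillary cells 4254 in PyMT (5449.5 and 1879 in KPC). Of the 1941 thinned PyMT tip cells, 790 also met the capillary rule, the only rule read after theirs. In KPC 181 of 1237 did. With the rules read on the thinned counts the sum ratio was 0.08 in PyMT and 0.21 in KPC. Without cells that met more than 1 rule it was 0.06 in PyMT, and among cells of 3000 to 6000 UMIs it was 0.15 in PyMT and 0.16 in KPC.

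Artery BECs had the lowest sum, more clearly in PyMT than in KPC. The sum ratio of artery over capillary was -1.67 (-1.96 to -1.41) in PyMT, from 112 UMIs in 107 cells, and -0.59 (-0.87 to -0.32) in KPC, from 121 UMIs in 67 cells. In PyMT 32 of 36 genes were at a log2 ratio of -1 or less, against 16.4% of 9435 features, and in KPC 6 of the 24 genes with 20 or more UMIs, against 17.1% of 6870. In KPC 4 of the 24 genes were above 0, against 45.2% of features, and 2 had an interval below 0, against 6.54%. The licensing and helicase genes summed to 328 CPM in artery and 351 in capillary cells of KPC (-0.10, -0.58 to 0.35). That minimum is passed here mainly through capillary cells, so the counts describe direction and not its stability. Ccne1, Cdc6, E2f8, Exo1, Mcm10, Mcm4, Pola1, Prim1 and Ung had no UMI in the PyMT artery cells, where 3 UMIs would be 14.0 CPM. These 9 are counted among the 32 at -1 or less, although they passed the minimum through capillary cells alone. Features without artery UMIs are counted likewise in the 16.4%. The median ratio of the 36 genes was -1.91, and -1.46 with these 9 set to 3 UMIs. Of the genes with UMIs, Rrm2 was lowest in PyMT (-3.79, -9.10 to -1.30, from 1 and 306 UMIs) and Mcm6 highest (-0.46). In KPC Rpa2, a subunit of the single-strand binding complex, was lowest (-2.13, -7.47 to 0.43, from 1 and 39 UMIs) and Mcm2 highest (0.64, -0.76 to 1.81), and Rad51ap1 had no UMI.

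At the settings used, venule BECs stood near capillary BECs. The sum ratio was -0.16 (-0.26 to -0.06) in PyMT and 0.05 (-0.05 to 0.15) in KPC. In PyMT 26 of 36 genes were below 0, against 48.9% of 9603 features, from E2f8, a late repressor of E2F targets (0.95, -0.48 to 2.17), down to the nuclease Exo1 (-2.08, -7.42 to 0.50, from 1 and 35 UMIs). In KPC 18 of 33 genes were above 0, against 45% of 8221 features, from Cdca7 (1.30, 0.16 to 2.54) down to Rad51ap1 (-1.11, -2.21 to -0.09). Of the thinned venule cells, 181 of 285 in PyMT and 140 of 533 in KPC met more than 1 rule. The PyMT ratio was -0.83 with class rules read on thinned counts and -0.48 without cells that met more than 1 rule. In PyMT the nearness to capillary cells thus depended on how venule cells were defined. The KPC ratio was -0.20 with rules read on thinned counts and 0.33 without thinning, so its direction changed with the processing.

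The other class, which met none of the marker rules, went opposite ways in the libraries. Its sum ratio over capillary was -0.58 (-0.62 to -0.54) in PyMT, where all 36 genes were below 0, against 51% of 11084 features, and 30 had an interval below 0, against 11.6%. In KPC the ratio was 0.15 (0.07 to 0.23), with 29 of 36 genes above 0, against 50% of 10091 features. There only 2 of 36 had an interval above 0, against 8.07% of features, and 2 had one below 0, against 8.95%. Single genes thus gave the KPC direction little weight. Lowest in PyMT were Ung, which removes uracil from DNA (-1.11, -1.54 to -0.69), and the checkpoint adaptor Clspn (-1.06, -1.46 to -0.65), and highest was Slbp (-0.20, -0.36 to -0.05). In KPC Cdc6 was lowest (-1.10, -2.12 to -0.02) and Mcm10 highest (1.36, -0.34 to 3.72, from 27 and 3 UMIs). Tip over the other class gave 0.88 (0.83 to 0.92) in PyMT and 0.21 (0.16 to 0.27) in KPC. All 36 genes were above 0 in PyMT and 30 of 36 in KPC, against 48.7% and 43% of features, and 16 of 36 were at a log2 ratio of 1 or more in PyMT, against 1.61% of 11010 features, and 2 of 36 in KPC, against 1.49% of 10335. Those 2 were Cdc6 (1.05, 0.20 to 1.91) and Ung (1.02, 0.34 to 1.71), and Ung was also highest in PyMT (1.55, 1.14 to 1.97). The other class had more of other cell types' markers than capillary cells, with 567 against 136 CPM of lymphatic and 116 against 18.0 CPM of fibroblast markers in PyMT and 680 against 148 and 359 against 78.7 in KPC, and the part of these cells in the result was not tested.

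PyMT and KPC BECs differed little in the sum of the 36 genes, and the direction differed by class. Over all BECs the log2 ratio of PyMT over KPC was -0.08 (-0.10 to -0.05), but it was 0.09 (0.05 to 0.13) when cells were thinned to 1000 UMIs and 1.33e-05 (-0.02 to 0.02) without thinning, so its direction turned with the depth. The median of all 12119 features was -0.14, and 26 of 36 genes were below 0, against 64.8% of features. By class it was 0.23 (0.18 to 0.28) in tip, 0.30 (0.22 to 0.37) in capillary, 0.08 (-0.04 to 0.21) in venule, -0.43 (-0.48 to -0.39) in the other class and -0.79 (-1.17 to -0.40) in artery cells. In tip cells 28 of 36 genes and in capillary cells 30 of 36 were above 0, against 41.4% of features in each, and in the other class 32 of 36 were below 0, against 64.6%. Pcna was lowest over all BECs, with 41.8 CPM in PyMT and 67.0 in KPC (log2 ratio -0.68, -0.83 to -0.52). At the other end stood Ung, with 16.6 and 11.0 CPM (0.59, 0.26 to 0.93), and the chromatin remodeler Hells, with 40.4 and 26.9 CPM (0.58, 0.37 to 0.80). None of the 36 genes passed a log2 ratio of 1 in either direction, where 3.37% of features were at 1 or more and 8.51% at -1 or less, and 1 library of each model gives no measure of how libraries of 1 model vary.

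The genes were found together in the same cells. Over BECs thinned to 2000 UMIs, a gene's Pearson r with the sum of the other 35, on log2(UMI + 1), had a median of 0.21 over 9355 PyMT cells and 0.26 over 4531 KPC cells, for the 35 genes detected in 1% of cells in both. Over other genes the median was -0.001 and -0.004, with 5th to 95th percentiles of -0.05 to 0.08 and -0.06 to 0.09. Pclaf was highest (0.44 and 0.51) and Cdca7 lowest (0.12 and 0.11). Cells with no UMI of the 11 licensing and helicase genes had a mean of 1.29 UMIs of the other 25 genes in PyMT and 1.16 in KPC. With 1 such UMI the mean was 2.33 and 2.17, with 2 it was 4.25 and 4.34, and with 3 or more it was 6.74 and 7.67. These cells share a library and a depth, and the correlations describe them and test nothing.

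Outside the list, the genes most like its sum were Hmgb2 (r 0.42 in PyMT and 0.49 in KPC), a chromatin protein, Top2a (0.39 and 0.44), the topoisomerase that untangles replicated DNA, and Tuba1b (0.38 and 0.50), a tubulin. They were followed by H2afz, Cdk1, Dut, Tk1, Hist1h2ap, Ran and Lig1, with r of 0.32 or more in both libraries. Dut and Tk1 supply nucleotides and Lig1 joins Okazaki fragments, and these 3 stood in a list of 41 other replication genes.

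Summed over cells, high BECs had more transcripts of other replication genes and of G2 and M phase genes. Against BECs with 0 or 1 UMI of the 36 genes (4505 in PyMT and 2268 in KPC), the list of other replication genes had 2442 against 565 CPM in PyMT and 2841 against 583 in KPC. In PyMT 36 of 41 genes reached a log2 ratio of 1 or more, and 36 of 39 in KPC, where 5.39% and 5.85% of all features did. Among the highest were the histone chaperone Asf1b (4.56) in PyMT and Asf1b (5.35) and Chaf1a (5.34) in KPC, and lowest were Pola2 (0.20) and Timeless (0.78) in PyMT and Timeless (-0.04) and Orc2 (0.66) in KPC. Each of the 40 G2 and M phase genes reached a log2 ratio of 1 in both libraries, from Ccnb2 (1.11) and Hjurp (1.13) to Top2a (4.17) and Aurkb (4.21) in PyMT and from Hjurp (1.22) and Cdc25c (1.76) to Nuf2 (4.47) and Top2a (4.57) in KPC. High cells had more UMIs before thinning, with medians of 5474 against 3802 in PyMT and 5326.5 against 3677.5 in KPC, and the part of depth in these ratios was not tested.

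Regulators of the G1 to S transition were mixed. Of the G1/S regulators with 20 or more UMIs, 14 of 19 were higher in high cells in PyMT and 15 of 20 in KPC, against 47.4% and 43.8% of all features. Cyclin A2 (Ccna2) had 123 against 15.9 CPM in PyMT (2.96, 2.69 to 3.24) and 148 against 9.04 in KPC (4.03, 3.56 to 4.54). E2f1 had a ratio of 3.23 in PyMT, and E2f2 had 11.0 CPM in high KPC cells and no UMI in low ones. Cyclin D2 (Ccnd2) went the other way, with 9.33 against 20.4 CPM in PyMT (-1.13, -1.69 to -0.61) and 84.9 against 136 in KPC (-0.68, -0.94 to -0.43). The inhibitors of cyclin-dependent kinases differed among themselves, with Cdkn1a at -0.24 (-0.40 to -0.08) in PyMT and 0.05 (-0.10 to 0.21) in KPC and Cdkn1c at -0.07 (-0.82 to 0.63) and -0.71 (-1.37 to -0.10). Cdkn2c, chosen after its values were seen, was higher in high cells, at 1.78 (1.45 to 2.11) and 2.54 (2.15 to 2.95).

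Angiogenic capillary genes were lower in high cells, although the tip class, whose marker list shares genes with them, had the highest share of high cells. Of 10 such genes 9 had a ratio below 0 in each library, against 52.6% of all features in PyMT and 56.2% in KPC, and 3 in PyMT and 2 in KPC were at -1 or less, against 4.71% and 6.28% of all features. The chemokine receptor Cxcr4 had 6.74 against 25.5 CPM in PyMT (-1.92, -2.57 to -1.33) and 6.29 against 19.0 in KPC (-1.59, -2.60 to -0.71). The growth factor Pgf had 23.8 against 71.6 CPM (-1.59, -1.92 to -1.27) and 14.2 against 50.9 (-1.85, -2.48 to -1.27). Mest was the exception, at 0.06 (0.01 to 0.12) and 0.08 (-0.11 to 0.27). Summed over all BECs, the angiogenic list had a ratio of -0.23 in PyMT and -0.41 in KPC. Other lists were lower too, with pan-endothelial at -0.23 and -0.26, capillary at -0.29 and -0.37 and venule at -0.23 and -0.67. The tip list was at 0.12 in PyMT and -0.47 in KPC. A lower level in high cells was thus not particular to angiogenic genes. Within tip cells alone, the summed list had 4346 CPM in high and 5531 in low cells of PyMT (-0.35, -0.40 to -0.30) and 3643 and 5333 in KPC (-0.55, -0.62 to -0.48). Within capillary cells the ratio was -0.18 (-0.23 to -0.12) in PyMT and -0.34 (-0.47 to -0.21) in KPC, and within venule cells its interval held 0 in both.

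Markers of arteries were also lower in high cells. The artery list had 81.3 CPM in high and 297 in low BECs of PyMT (-1.87, -2.04 to -1.70) and 106 and 478 in KPC (-2.17, -2.39 to -1.97). The difference was not limited to cells classed as artery, since within capillary cells the ratio was -1.58 in both libraries (-1.93 to -1.25 in PyMT and -2.19 to -1.03 in KPC). Within venule cells it was -2.49 (-3.85 to -1.38) in PyMT, from only 7 UMIs in 61 high cells. In KPC venule cells it was -1.24 (-1.91 to -0.63), from 25 UMIs in 100 high cells. Within the other class it was -1.37 (-1.66 to -1.08) in PyMT and -1.93 (-2.24 to -1.64) in KPC. It was weaker within tip cells, at -0.49 (-0.89 to -0.10) in PyMT and -0.61 (-1.41 to 0.15) in KPC, where the interval held 0. Marker lists of pericytes (20.5 against 85.0 CPM in PyMT, 28.3 against 111 in KPC), fibroblasts (26.7 against 92.9 and 111 against 267) and immune cells (21.0 against 48.7 and 72.9 against 192) were lower in high BECs too, and their part in the ratios was not tested. The pan-endothelial list differed less, with 3728 against 4368 CPM in PyMT (-0.23) and 4575 against 5473 in KPC (-0.26).

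High cells differed in how many G2 and M transcripts they carried. Of the high BECs, 1030 in PyMT (53.4%, 51.1 to 55.6%) and 579 in KPC (60.7%, 57.5 to 63.8%) had 5 or more UMIs of the G2 and M phase list, and 389 (20.2%) and 202 (21.2%) had 0 or 1. Of low BECs, 7.66% and 3.84% had 5 or more. By class, the G2 and M list followed an order like that of the 36 genes, with tip over capillary at 0.26 (0.22 to 0.30) in PyMT and 0.40 (0.32 to 0.48) in KPC, although in KPC tip over the other class was 0.01 (-0.04 to 0.06) for it and 0.21 (0.16 to 0.27) for the 36 genes.

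The 36 genes were not carried alike by high cells with many and with few G2 and M transcripts. Between these groups the sum of the 36 genes itself had a log2 ratio of 0.30 (0.24 to 0.36) in PyMT and 0.61 (0.53 to 0.70) in KPC, so each gene was read against the sum. Pclaf, Rad51ap1 and Rrm2 had intervals above the sum in both libraries, as did 1.5% of the 7049 features outside the G2 and M list. Pclaf had 2.33 (2.08 to 2.58) and 2.72 (2.30 to 3.16), and Rrm2, the subunit of ribonucleotide reductase whose amount varies over the cycle, 1.65 (1.28 to 2.03) and 2.77 (2.12 to 3.50). At the other end 11 genes had intervals below the sum in both libraries, as did 17.6% of features, namely Cdca7, Hells, Mcm2, Mcm3, Mcm4, Mcm5, Mcm6, Nasp, Slbp, Tipin and Ung. Ung was lowest, at -1.57 (-2.10 to -1.04) and -1.46 (-2.33 to -0.59), followed by Cdca7 at -0.94 (-1.42 to -0.45) and -0.92 (-1.65 to -0.16). Mcm2 had -0.70 (-1.06 to -0.33) and -0.67 (-1.14 to -0.19). Thus 5 of the 6 subunits of the Mcm2 to Mcm7 helicase were below the sum in both libraries. That sum held Pclaf itself, with 1873 of its 9540 UMIs in PyMT cells with many G2 and M transcripts. In those with few, Pclaf gave 141 of 2920. A sum without Pclaf was not used, so the positions of genes against the sum hold only with Pclaf in it. The intervals of Mcm5 and Mcm6 held 0 in PyMT, and those of Mcm4, Mcm5 and Mcm6 did in KPC. Read against 0, only 4 genes had intervals below it in both libraries, namely Cdca7, Mcm2, Mcm3 and Ung, and 8 had intervals above it. Rrm1, the other reductase subunit, had 1.08 (0.70 to 1.47) and 1.06 (0.59 to 1.56), above the sum in PyMT but with an interval that held it in KPC. All these cells were chosen for 5 or more UMIs of the 36 genes, so the genes share that total and cannot all move one way.

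**Figure D4:**
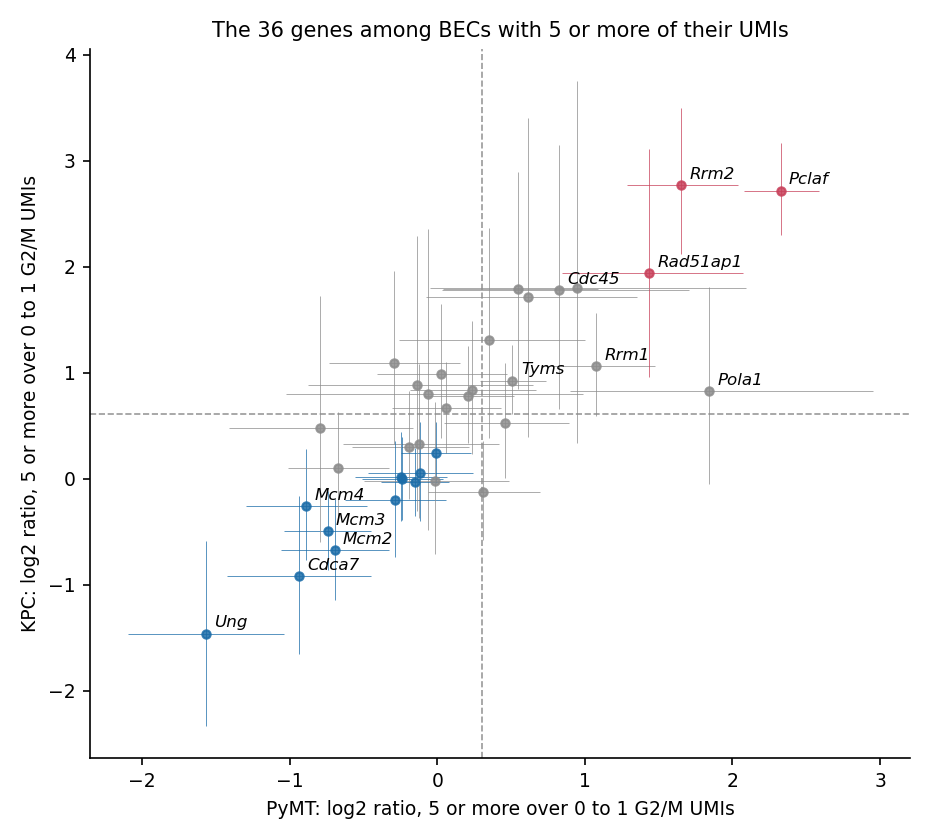
Log2 ratio of each of the 36 genes between high BECs with 5 or more and with 0 or 1 UMIs of the G2 and M phase list, in PyMT (horizontal axis) and KPC (vertical axis), with exact 95% intervals for counting error and dashed lines at the ratio of the summed genes (0.30 and 0.61). Pclaf, Rrm2 and Rad51ap1 (red) lie above the sum, which holds Pclaf, in both libraries, and 11 genes (blue), with Ung lowest, lie below it.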

How the data were processed

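The authors aligned reads of the 10x 3′ libraries to mm10 with Cell Ranger (version 3.0, with 3.0.2 in the matrix header) and deposited counts, the UMIs per gene and barcode as whole numbers without normalization. The sources name both the v3 and the v2 kit. Barcodes were kept if 500 or more genes were detected and if mitochondrial UMIs made up less than 10%. Classes were set in order by UMI sums: tumor Krt8 and Krt18, 5 or more; fibroblast Col1a1 and Col1a2, 10; lymphatic Mmrn1 and Prox1, 3; pericyte Notch3 and Higd1b, 2; venule Ackr1 and Selp, 3; artery Gja5 and Sema3g, 2; tip Apln and Angpt2, 3; capillary Car4 and Cd300lg, 2. Cells were thinned to 2000 UMIs (seed 0), and shallower cells were left out, which the text counts. No doublet caller was run. Doublets were addressed by leaving out cells that met more than 1 rule, or the 8% of cells with most UMIs. By the order of the rules, the first filter removes no capillary or other cell. Among BECs it alters only the tip, venule and artery classes, so it does not remove doublets evenly.

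Levels are CPM of UMIs summed over a class with exact Poisson intervals, shares have Clopper-Pearson intervals, and log2 ratios have exact conditional intervals (95% in each case, covering the counting error alone) from Python 3.11.15, numpy 2.4.6 and scipy 1.17.1. Ratios of single genes are given for features with 20 or more UMIs over both sides. With 1 library per tumor model no test was made. The genes and lists were chosen with earlier results of these data known, and the split by G2 and M transcripts was added after class values were seen. Genes named are the 36, with full values for the 8 with the most UMIs and for the extremes of each comparison, the 10 most like their sum, and the extremes of each list, of which 1 gene is not reported here. On simulated counts for tip over capillary with 200 genes changed by a log2 fold of 2, 96.2% of intervals held the set ratio in each library, over 10236 genes in PyMT and 9145 in KPC, and 99.5% and 99% of changed genes passed a log2 ratio of 1. The simulated counts were drawn from a Poisson distribution, which the intervals assume, with changes larger than the tip over capillary sum ratios. They check the calculation and not its fit to BECs, whose sums varied more than a Poisson distribution allows. Positions are from GENCODE M21 (GRCm38) and promoter windows from RefSeq.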

Additional observations from a re-analysis of the deposited data

Results flagged for a closer look

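The other class moved opposite ways from capillary cells in the tumor models, and the venule class had ratios of opposite sign, of which the KPC one had an interval that held 0 and turned negative in 4 of 11 alternatives. The log2 ratio of the summed 36 genes, other class over capillary, was -0.58 in PyMT and 0.15 in KPC. Venule over capillary was -0.16 in PyMT and 0.051 in KPC. Each model had 1 library, and the differences between the models were not tested.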

How the results depend on the processing

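Of 119 values under alternative settings, 81 stayed within the error of the reported value, 36 moved beyond it and 2 reversed a direction whose interval left out 0; counting values with intervals that held 0, 6 changed sign, of which 4 were venule over capillary in KPC (also -0.03 without cells that met more than 1 rule and -0.0063 without the 8% of cells with the most UMIs). The cause was not tested. Artery over capillary stayed below 0 in all 11 settings, tip over capillary stayed above 0, and other over capillary stayed below 0 in PyMT and above 0 in KPC. PyMT over KPC changed sign at 1000 UMIs (0.092) and without thinning (1.33e-05). Thinned to 1000 UMIs, tip over capillary was 0.24 in PyMT and 0.60 in KPC, venule over capillary -0.45 and 0.19, and other over capillary -0.65 in PyMT, and at 3000 UMIs tip over capillary was 0.18 in PyMT. Without thinning, tip over capillary was 0.23 in PyMT and 0.53 in KPC, venule over capillary 0.33 in KPC and artery over capillary -0.28 in KPC. With classes from thinned counts, tip over capillary was 0.079 and 0.21, venule over capillary -0.83 and -0.20, and other over capillary -0.36 and 0.46. Without cells that met more than 1 rule, tip over capillary was 0.061 and venule over capillary -0.48 in PyMT, PyMT over KPC was -0.16, and 18.3% of PyMT BECs were high. High BECs were 36% and 33.9% at 3 or more UMIs and 11.1% and 11.7% at 8 or more, 19.3% and 19.8% without the 8% of cells with the most UMIs, and 17.7% and 19.4% without Pclaf, where PyMT over KPC was -0.12. The following 2 alternatives were added after seeing the data. Among cells of 3000 to 6000 UMIs, tip over capillary was 0.15 and 0.16, venule over capillary -0.20 in KPC, artery over capillary -2.03 and other over capillary -0.53 in PyMT, and 18.2% and 19.0% of BECs were high. Cells with a Pecam1 or Cdh5 UMI and under 3 immune UMIs gave values within the error. Shares of high cells were not computed at other depths, where 5 UMIs mean another level. No paired analysis was possible because each model has 1 library. The artery class is limited by its few cells, with 112 and 121 UMIs of the 36 genes, and depth left out 700 of 1297 KPC capillary and 1992 of 4089 KPC other cells.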
